A study of Mus musculus with 9 samples.

Results

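Expression of 10 genes of antigen presentation was compared between the choroid (CH), the retinal pigment epithelium (RPE) and the photoreceptors (PR) of the mouse eye. The genes were H2-K1, H2-D1, B2m, Tap1, Tap2, Psmb8, Psmb9, Cd74, H2-Aa and H2-Ab1, chosen by symbol, and every probe that is not a control and whose gene name is a listed symbol, in any case, was taken. This gave 11 of the 39429 probes and 10 of the 31829 gene names on a dual-colour Agilent whole mouse genome array. There were 3 arrays for each tissue and 9 in all. According to the labels, all tissue came from female C57BL/6 mice aged 6 months, with a range of 2 weeks; no mouse carried a transgene or received a treatment. Each sample was laser dissected from frozen sections of an eye, and its amplified RNA carried Cy5. A pool of RNA from mouse RPE and choroid carried Cy3 on every array and served as a common reference, and the dyes were never swapped. All levels below are therefore log2 ratios of tissue to reference, after normalization within each array by loess. A level of 0 thus marks the centre of spots of similar brightness on that array, not equal raw signals. On RPE 1, for example, H2-K1 had a level of 0.00047 with a Cy5 signal of 138094 and a Cy3 signal of 50268. Whether the equally numbered samples of the 3 tissues came from the same eye was not given in the sources used here. By the array headers, CH 1, CH 3, RPE 1 and RPE 3 shared slide 2, while CH 2, RPE 2 and PR 2 shared slide 3. PR 1 and PR 3 were on slide 1, which held no other tissue.

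Cells show pieces of their own proteins on MHC class I molecules at the cell surface. The proteasome cuts the proteins, and in cells exposed to interferon its catalytic subunits are exchanged for those of the immunoproteasome. A transporter then carries the peptides into the endoplasmic reticulum, where they are loaded onto a class I heavy chain paired with a light chain. MHC class II molecules are made mainly by professional antigen-presenting cells such as dendritic cells and macrophages, which the choroid contains, and show peptides taken up from outside. The inner eye behind the RPE barrier is known as a site where immune responses are restrained.

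Of the 10 genes, 7 had a promoter sequence in RefSeq, build GRCm38.p6. The 250 bases before the annotated start are shown for 5 of them, since these genes encode both heavy chains, the light chain, a transporter subunit and a class II chain, and each had a lower level in the PR than in the other tissues. Each runs 5′ to 3′ on the strand of the gene, and for H2-K1, which has more than 1 listed start, the window of the lowest coordinate is given. Capitals mark matches, on either strand, to 3 motifs that were chosen after these windows had been seen. They are ATTGG, the core of a CCAAT box, TGACG, the core of a cyclic AMP response element, and GGGGATTCC, an NF-kB type site.
H2-K1, chr17:34000334-34000583 (-): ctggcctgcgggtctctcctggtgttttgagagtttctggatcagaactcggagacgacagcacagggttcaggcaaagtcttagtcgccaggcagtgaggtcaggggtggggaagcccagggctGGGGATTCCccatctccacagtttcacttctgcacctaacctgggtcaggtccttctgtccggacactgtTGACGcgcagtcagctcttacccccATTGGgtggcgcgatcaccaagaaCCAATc
H2-D1, chr17:35262844-35263093 (+): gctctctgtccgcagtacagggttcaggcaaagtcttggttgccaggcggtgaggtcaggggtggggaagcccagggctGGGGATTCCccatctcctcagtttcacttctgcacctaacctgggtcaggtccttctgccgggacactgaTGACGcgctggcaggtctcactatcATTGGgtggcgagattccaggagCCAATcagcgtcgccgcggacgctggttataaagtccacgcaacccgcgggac
B2m, chr2:122147437-122147686 (+): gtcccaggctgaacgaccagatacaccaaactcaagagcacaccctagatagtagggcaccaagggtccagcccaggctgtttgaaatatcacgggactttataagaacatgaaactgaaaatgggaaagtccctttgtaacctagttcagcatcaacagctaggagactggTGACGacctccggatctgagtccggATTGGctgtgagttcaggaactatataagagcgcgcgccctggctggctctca
Tap1, chr17:34187306-34187555 (+): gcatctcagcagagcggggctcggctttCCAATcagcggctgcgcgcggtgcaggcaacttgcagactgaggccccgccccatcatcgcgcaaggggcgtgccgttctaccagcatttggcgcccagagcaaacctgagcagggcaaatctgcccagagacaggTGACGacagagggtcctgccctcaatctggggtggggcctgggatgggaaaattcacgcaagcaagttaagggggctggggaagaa
H2-Aa, chr17:34287824-34288073 (-): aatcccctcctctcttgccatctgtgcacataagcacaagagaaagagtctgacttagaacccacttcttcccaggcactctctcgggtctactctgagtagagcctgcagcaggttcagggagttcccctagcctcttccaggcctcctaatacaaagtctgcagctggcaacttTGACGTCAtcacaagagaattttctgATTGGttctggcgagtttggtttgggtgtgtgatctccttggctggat

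A match to ATTGG was present in 6 of the 7 windows, against 33.8% of the 32851 windows of this length in the RefSeq table. TGACG was present in the same 6, those of H2-K1, H2-D1, B2m, Tap1, Psmb9 and H2-Aa, against 17.8% of all windows. In B2m, TGACG and ATTGG on the strand of the gene began 78 and 53 bases before the start, and in H2-Aa 74 and 48 bases before it. H2-D1, at 101 and 76 bases, and H2-K1, at 55 and 30 bases, had the same order. GGGGATTCC stood in the windows of H2-K1 and H2-D1 and in 0.213% of all windows. The longest identical run of the H2-K1 and H2-D1 windows was 47 bases. Tap1 and Psmb9 are transcribed away from each other, and 225 bases of their windows were the same stretch of chromosome 17, so their matches are the same sites. The Psmb8 window, which is not printed, held no match. In H2-Aa, TGACG overlaps a match on the opposite strand. These are matches of letters, and no binding was measured.

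The probes of Tap1, Psmb8, Psmb9 and H2-Aa and the second probe of H2-K1 are printed with their position on mm9, the assembly of the array files, to show which stretch was measured. Capitals mark runs of at least 20 bases that also occur in a probe with another gene name, and only the second probe of H2-K1 among those printed had any.
H2-K1, chr17:34133984-34134043 (-): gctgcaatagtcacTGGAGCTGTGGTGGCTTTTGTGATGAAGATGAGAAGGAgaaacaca
Tap1, chr17:34330854-34330913 (+): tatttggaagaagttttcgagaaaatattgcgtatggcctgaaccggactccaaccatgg
Psmb8, chr17:34337771-34337830 (+): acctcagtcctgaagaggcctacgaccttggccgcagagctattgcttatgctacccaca
Psmb9, chr17:34319174-34319233 (-): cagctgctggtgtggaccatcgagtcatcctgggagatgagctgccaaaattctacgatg
H2-Aa, chr17:34421285-34421344 (-): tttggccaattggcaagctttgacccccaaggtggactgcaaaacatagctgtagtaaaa

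The second H2-K1 probe shared 29 bases with a probe of H2-T23, a non-classical class I gene, and 22 bases with a probe named LOC100044874. The H2-Ab1 probe, at chr17:34406296-34406355 on mm9, shared 41 bases with a probe named LOC641240. The first H2-K1 probe lies at chr17:34133055-34133114, the H2-D1 probe at chr17:35403886-35403945, the Tap2 probe at chr17:34353116-34353175 and the B2m probe at chr2:121978401-121978460. All members but B2m and Cd74 lie on chromosome 17, where the mouse MHC is. The reported probe of H2-K1 is the first, which is the brighter and has 10 spots per array, as has the Tap1 probe; the other probes have 1 spot.

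The labels of the 3 tissues were checked against marker genes. All 10 rod markers were called lower in RPE than PR, their mean level ranging from -0.66 to 0.23 in RPE and from 3.53 to 3.68 in PR. Of 9 RPE markers, 7 were called higher in RPE than CH, while Best1 was well above background on no CH array and on only 1 RPE array. RPE markers were also called higher in CH than PR, 8 of 9, so their signal was also present in the CH samples. In turn, 11 of 12 endothelial, 7 of 7 fibroblast and 5 of 6 pericyte markers were called higher in RPE than PR. Their signal was thus also present in the RPE samples. The mean level of the endothelial markers ranged from 1.41 to 1.56 in RPE and from 1.27 to 1.89 in CH. Over all probes, 5.17% were called lower and 10.3% higher in RPE than PR, 0.185% higher in RPE than CH and 12% higher in CH than PR. CH 3 stood apart from the other CH arrays. Its mean level of the RPE markers was 1.14, against 0.43 in CH 1 and 0.26 in CH 2, and its correlation with the RPE arrays over probes unsaturated and well above background was between 0.74 and 0.79, against 0.64 to 0.73 for the other CH arrays. RPE 2 had 91.7% of its probes well above background in Cy5, while the other arrays had between 62.1% and 71.2%. With only 3 arrays per tissue, the number of arrays limits how precise these values are.

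Every member had its highest mean level in the CH, its next in the RPE and its lowest in the PR. Compared to the PR, 8 of 10 genes were called higher in the RPE and 10 of 10 in the CH, with a fold change (FC) above 2.5 and a Benjamini-Hochberg adjusted p below 0.01 in limma. Over all probes, 10.3% were called higher in RPE than PR and 5.17% lower, and 12% were called higher and 6.33% lower in the CH; among probes well above background on all 3 arrays of a tissue, as every member is, these shares were 15% and 17.4%. On all 10 genes the 3 RPE arrays and the 3 CH arrays lay above the 3 PR arrays, which held for 28.5% and 27.7% of all probes. The median difference of the members was 2.07 (RPE minus PR) and 2.74 (CH minus PR) on the log2 scale, beside -0.0051 and -0.054 over all probes. Between the RPE and the CH no member was called. The comparisons share arrays and are not independent of each other. In such bulk samples, fewer cells of a type and less RNA per cell cannot be told apart.

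**Figure D1:**
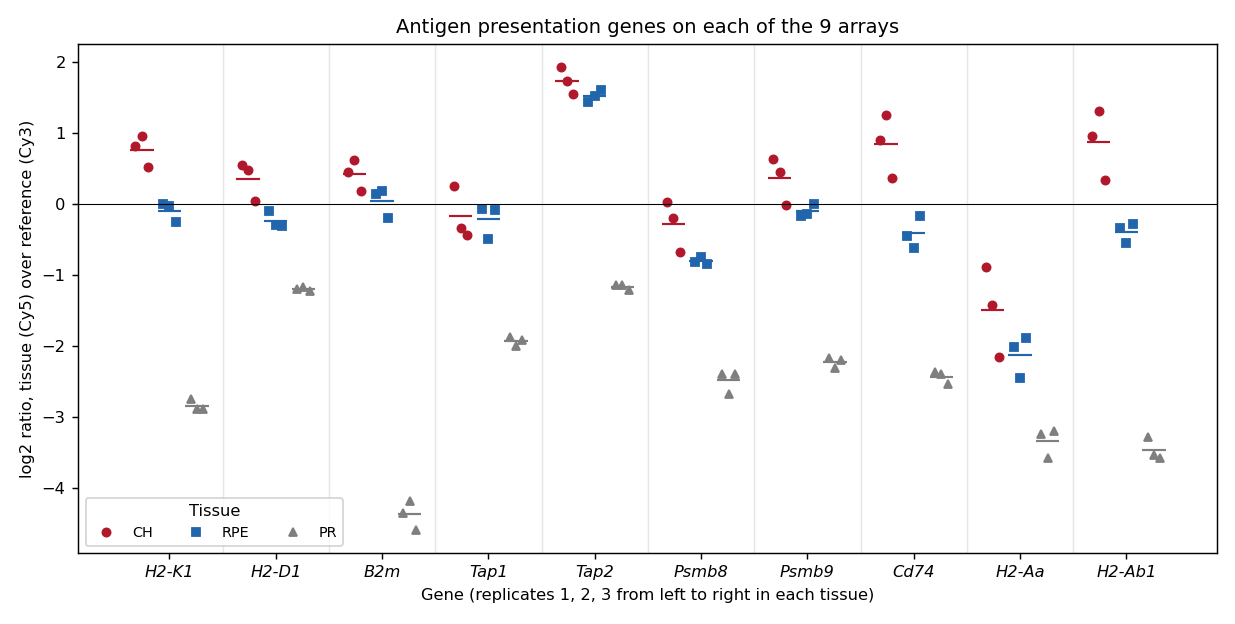
The log2 ratio of tissue (Cy5) to reference (Cy3) is plotted for each of the 10 genes on each of the 9 arrays, with circles for the CH, squares for the RPE, triangles for the PR and a line at the mean of 3 arrays. The triangles lie below all circles and squares in every gene, and the circle of CH 3 is the lowest of its group in every gene.

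B2m encodes beta-2 microglobulin, the light chain that all class I molecules share. Its level was 0.45, 0.62 and 0.18 in CH 1, CH 2 and CH 3, then 0.13, 0.18 and -0.20 in the RPE arrays and -4.35, -4.17 and -4.58 in the PR arrays. The PR arrays were thus far below the others, while the CH and RPE arrays overlapped. Against the PR, B2m had an FC of 21.2 in the RPE (log2 difference 4.40 ± 0.16 SE, adjusted p = 2.21e-08, limma, n = 3 arrays per tissue) and 27.5 in the CH (4.78 ± 0.16, adjusted p = 8.88e-09). The size of this difference depends on the reference channel. The Cy3 signal of the B2m spot, which comes from the same reference on every array, was between 298441 and 376037 on the PR arrays and between 91693 and 135878 on the others, a mean ratio of 3.06. For the other members this ratio was between 0.909 and 1.5. In the Cy5 channel alone the B2m difference was 3.19 for the RPE and 3.39 for the CH, still called. B2m had the largest difference of the members in the CH by the log ratio over all arrays, but that of H2-Ab1 was larger in Cy5 alone, at 4.15, and within slide 3, at 4.84. The spot was saturated in Cy5 on CH 2, so the CH value is not exact.

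H2-K1 encodes a classical class I heavy chain, which presents peptides to cytotoxic T cells. Its level was 0.81, 0.95 and 0.52 in the CH, 0.00047, -0.030 and -0.25 in the RPE, and -2.75, -2.88 and -2.89 in the PR. The 3 tissues did not overlap. Compared to the PR its FC was 6.70 in the RPE (2.74 ± 0.13 SE, adjusted p = 9.93e-08) and 12.1 in the CH (3.60 ± 0.13, adjusted p = 1.33e-08). The second probe, shown above with the run it shares with H2-T23, gave a smaller difference, 1.35 ± 0.17 in the RPE and 1.63 ± 0.17 in the CH, both still called. The H2-T23 probe itself gave 1.34 and 1.80. With the mean of both H2-K1 probes the differences were 2.05 and 2.62.

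H2-D1 encodes the other classical heavy chain measured. Its level was 0.55, 0.48 and 0.040 in the CH, -0.097, -0.30 and -0.31 in the RPE, and -1.20, -1.17 and -1.22 in the PR. The tissues did not overlap here either, but the differences from the PR were the smallest among the class I members. The FC in the RPE over the PR was 1.95 (0.96 ± 0.14 SE, adjusted p = 0.000204), below the FC of 2.5 needed for a call, and in the CH over the PR it was 2.93 (1.55 ± 0.14, adjusted p = 5.64e-06), which was called.

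Tap1 and Tap2 encode the subunits of the peptide transporter of the endoplasmic reticulum. The level of Tap1 was 0.26, -0.33 and -0.44 in the CH, -0.069, -0.49 and -0.077 in the RPE, and -1.87, -1.99 and -1.92 in the PR. That of Tap2 was 1.93, 1.73 and 1.55 in the CH, 1.44, 1.52 and 1.61 in the RPE, and -1.15, -1.14 and -1.21 in the PR. In both genes the CH and RPE arrays overlapped and the PR arrays lay apart. The FC of the RPE over the PR was 3.28 for Tap1 (1.71 ± 0.18 SE, adjusted p = 3.01e-05) and 6.44 for Tap2 (2.69 ± 0.11, adjusted p = 4.36e-08). The FC of the CH over the PR was 3.38 for Tap1 (1.76 ± 0.18, adjusted p = 2.12e-05) and 7.47 for Tap2 (2.90 ± 0.11, adjusted p = 1.87e-08). On PR 1 the Tap1 probe was not well above background, so the PR level is less certain for this gene.

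Psmb8 and Psmb9 encode catalytic subunits of the immunoproteasome. The level of Psmb8 was 0.036, -0.20 and -0.68 in the CH, -0.81, -0.74 and -0.84 in the RPE, and -2.39, -2.67 and -2.39 in the PR, with no overlap between tissues. That of Psmb9 was 0.64, 0.46 and -0.012 in the CH, -0.16, -0.14 and 0.0066 in the RPE, and -2.17, -2.31 and -2.19 in the PR. For Psmb9, RPE 3 lay above CH 3. The FC of the RPE over the PR was 3.21 for Psmb8 (1.68 ± 0.17 SE, adjusted p = 1.79e-05) and 4.36 for Psmb9 (2.12 ± 0.15, adjusted p = 1.76e-06), and that of the CH over the PR was 4.59 (2.20 ± 0.17, adjusted p = 2.16e-06) and 6.00 (2.58 ± 0.15, adjusted p = 3.58e-07).

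The class II members showed the same order of tissues. Cd74 encodes the invariant chain, which guides class II molecules to the compartment where they are loaded. Its level was 0.90, 1.25 and 0.37 in the CH, -0.45, -0.61 and -0.17 in the RPE, and -2.36, -2.39 and -2.53 in the PR, so the 3 tissues did not overlap. H2-Ab1 encodes the beta chain of the class II molecule I-A. Its level was 0.95, 1.31 and 0.33 in the CH, -0.34, -0.54 and -0.28 in the RPE, and -3.27, -3.53 and -3.57 in the PR, again without overlap. Against the PR, the FC of Cd74 was 4.04 in the RPE (2.01 ± 0.20 SE, adjusted p = 1.90e-05) and 9.61 in the CH (3.27 ± 0.20, adjusted p = 5.05e-07). For H2-Ab1 the FC was 8.39 in the RPE (3.07 ± 0.22, adjusted p = 1.49e-06), and the log2 difference in the CH was 4.32 ± 0.22 (adjusted p = 1.11e-07). The probe named LOC641240, which shares the run of bases with that of H2-Ab1, gave nearly the same values, 3.25 and 4.46.

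H2-Aa encodes the alpha chain that pairs with the product of H2-Ab1. Its level was -0.89, -1.42 and -2.16 in the CH, -2.02, -2.45 and -1.89 in the RPE, and -3.23, -3.58 and -3.19 in the PR. All 9 normalized values were negative. The CH arrays were more spread than for any other member (SD 0.64, n = 3), and CH 3 lay among the RPE arrays. The FC was 2.33 in the RPE over the PR (1.22 ± 0.28 SE, adjusted p = 0.00499), just short of a call, and 3.60 in the CH over the PR (1.85 ± 0.28, adjusted p = 0.000318). Without RPE 2 the difference between the RPE and the PR was 1.38 and was called.

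Slide 1 held PR arrays only, so the comparisons with the PR were also read within slide 3, which held 1 array of each tissue and allows no test. There, all 10 genes were higher in RPE 2 than in PR 2, by 0.87 to 4.35 on the log2 scale, and all 10 were higher in CH 2 than in PR 2, by 1.65 to 4.84.

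**Figure D2:**
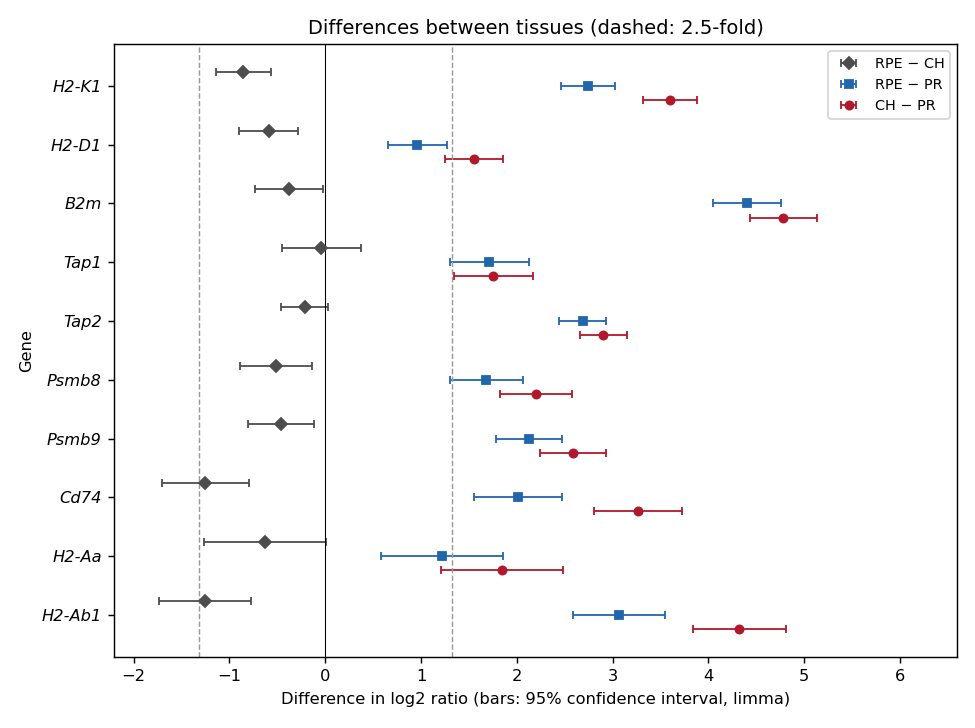
The difference in log2 ratio between tissues is plotted for each gene, with diamonds for RPE − CH, squares for RPE − PR, circles for CH − PR and bars for the 95% confidence interval from limma; dashed lines mark an FC of 2.5. All squares and circles lie to the right of 0, between 0.96 and 4.78, and all diamonds lie to the left of 0, between -1.25 and -0.041.

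The RPE and the CH differed much less. All 10 differences were negative, meaning lower in the RPE, with a median of -0.55 beside 0.038 over all probes. None passed both thresholds in limma, whereas 1.55% of all probes were called lower and 0.185% higher in the RPE. Among probes well above background 2.26% were called lower. At an adjusted p below 0.01 without an FC threshold, 3 of 10 members were lower (6.92% of all probes), and at an unadjusted p below 0.05, 7 of 10 (15.7%). The arrays of the tissues did not overlap for 5 of 10 members (17.8%). With a variance trend and robust moderation in limma the count of calls was also 0.

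The 3 genes below an adjusted p of 0.01 were H2-K1 and the class II genes Cd74 and H2-Ab1. The difference between the RPE and the CH was -0.86 ± 0.13 SE for H2-K1 (FC 1.81, adjusted p = 0.00154), -1.25 ± 0.20 for Cd74 (FC 2.38, adjusted p = 0.00233) and -1.25 ± 0.22 for H2-Ab1 (FC 2.39, adjusted p = 0.00301). The last 2 lie just under the FC of 2.5, and they were called when CH 3 was left out (-1.49 and -1.52), when an FC of 2 was used, and with median centring in place of loess. Cd74 was also called without RPE 3. In slide 3, which held CH 2 and RPE 2, the differences of Cd74 and H2-Ab1 were -1.86 and -1.86.

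Of the other members, H2-D1 had a difference of -0.59 ± 0.14 SE (adjusted p = 0.0124), H2-Aa -0.63 ± 0.28 (adjusted p = 0.154), Psmb8 -0.51 ± 0.17 (adjusted p = 0.0553) and Psmb9 -0.46 ± 0.15 (adjusted p = 0.0587). None of these passed the threshold. For B2m it was -0.38 (95% confidence interval -0.73 to -0.026), for Tap2 -0.22 (-0.46 to 0.029) and for Tap1 -0.041 (-0.46 to 0.37). The interval of Tap1 thus leaves room for a difference of either sign, and its sign turned to 0.17 when CH 1 was left out.

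How far the CH arrays stood above the RPE arrays varied with the array. CH 3 had the lowest CH level for 10 of 10 members, while 41.1% of all probes had their lowest CH level there. The mean level of the 7 class I members was 0.67, 0.53 and 0.17 in CH 1, CH 2 and CH 3, and that of the 3 class II members was 0.32, 0.38 and -0.48. The RPE arrays had class I means from -0.0089 to 0.062 and class II means from -1.20 to -0.78, so CH 3 remained above all RPE arrays in both. CH 3 was also the CH array with the highest mean level of RPE markers and of rod markers (-0.45, against -1.27 in CH 1 and -0.77 in CH 2). It had the lowest level of myeloid, endothelial (1.27, against 1.89 and 1.60), fibroblast, pericyte (0.97, against 1.79 and 1.73) and red blood cell markers. Not all lists went this way. For B cell and T cell markers CH 1 was the lowest (0.078 and 0.34, against 0.29 and 0.52 in CH 3). Mueller glia markers were highest in CH 3 (-0.64). The part of these markers in the result was not tested.

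Other genes of the pathway were taken from lists. In the class I list, 26 of 28 genes were measured. Compared to the PR, 12 were called higher in the RPE and 1 lower, with a median difference of 1.15. In the CH 12 were called higher and 0 lower, with a median of 1.21. Over all probes, 10.3% were called higher and 5.17% lower in the RPE, and 12% and 6.33% in the CH. Among probes well above background, 15% and 17.4% were called higher. Between the RPE and the CH, 1.55% of all probes were called lower in limma, and 0 genes of the list, with a median of -0.22. The largest differences belonged to H2-M3, a non-classical heavy chain that presents formylated peptides (3.72 in the RPE and 4.66 in the CH over the PR), and Mr1, which presents vitamin metabolites to mucosal T cells (3.02 and 2.79). Psme1, a subunit of the activator of the immunoproteasome, followed in the RPE with 2.28. The gene called lower in RPE than PR was H2-Q4 (-1.90). Tapbp, the tapasin that holds the heavy chain at the transporter, gave 0.33 in the RPE and 0.72 in the CH over the PR, and Erap1, which trims peptides, gave 0.87 and 1.03, none of which was called.

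Against the PR, the catalytic subunits of the immunoproteasome were called higher in both tissues, while those that they replace were not called. Psmb10, the remaining catalytic subunit of the immunoproteasome, was called higher in both tissues than in the PR. Its level was 0.58, 0.22 and 0.097 in the CH, 0.035, 0.099 and 0.060 in the RPE, and -1.48, -1.23 and -1.44 in the PR, a difference of 1.45 and 1.68 from the PR in the RPE and the CH. The subunits that these genes replace are Psmb5, Psmb6 and Psmb7. Their differences between the RPE and the PR were 0.40, -0.037 and 0.58, and between the CH and the PR 0.058, -0.28 and -0.016. In all, 0 of the 14 core subunits of the constitutive proteasome were called in any comparison. The medians were 0.11 (RPE minus PR), -0.27 (CH minus PR) and 0.35 (RPE minus CH). Of all probes, 10.3% were called higher and 5.17% lower in RPE than PR, and 12% and 6.33% in CH than PR. Between the RPE and the CH these shares were 0.185% and 1.55%, so a count of 0 among 14 genes is not far from them. At an adjusted p below 0.01 with no FC threshold, some subunits did differ, such as Psmb1, a core subunit, with 1.02 between the RPE and the CH (adjusted p = 0.000744).

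In the class II list all 18 genes were measured. Of these, 9 were called higher and 1 lower in RPE than PR, with a median difference of 1.24. In CH than PR, 9 were called higher and 0 lower, with a median of 1.46. The shares of all probes were 10.3% and 5.17% in the RPE and 12% and 6.33% in the CH. Between the RPE and the CH, 1.55% of all probes were called lower in the RPE. Ctss encodes cathepsin S, the protease that degrades the invariant chain. It had an FC of 14.5 in the RPE and 112 in the CH over the PR, and it was called lower in RPE than CH (-2.95, adjusted p = 3.40e-05). The costimulatory gene Cd86 was the other gene called lower in RPE than CH (-1.66), and it was not well above background on any PR array. H2-DMb1, a chain of the molecule that exchanges peptides on class II, differed by 3.52 and 3.60 from the PR and was not called between the RPE and the CH. Its partner H2-DMa gave 0.72 and 0.98 and was not called. H2-Eb1, the beta chain of the class II molecule I-E, followed the members with 1.77 and 2.65, both called, at levels of 0.57, 0.68 and -0.22 in the CH and -0.52, -0.69 and -0.40 in the RPE. Cd80 was the gene called lower in RPE than PR (-1.93), but only at the reported probe, since its other probe gave 0.34 and was not called. H2-Ea and H2-Eb2 were not well above background on any array.

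**Figure D3:**
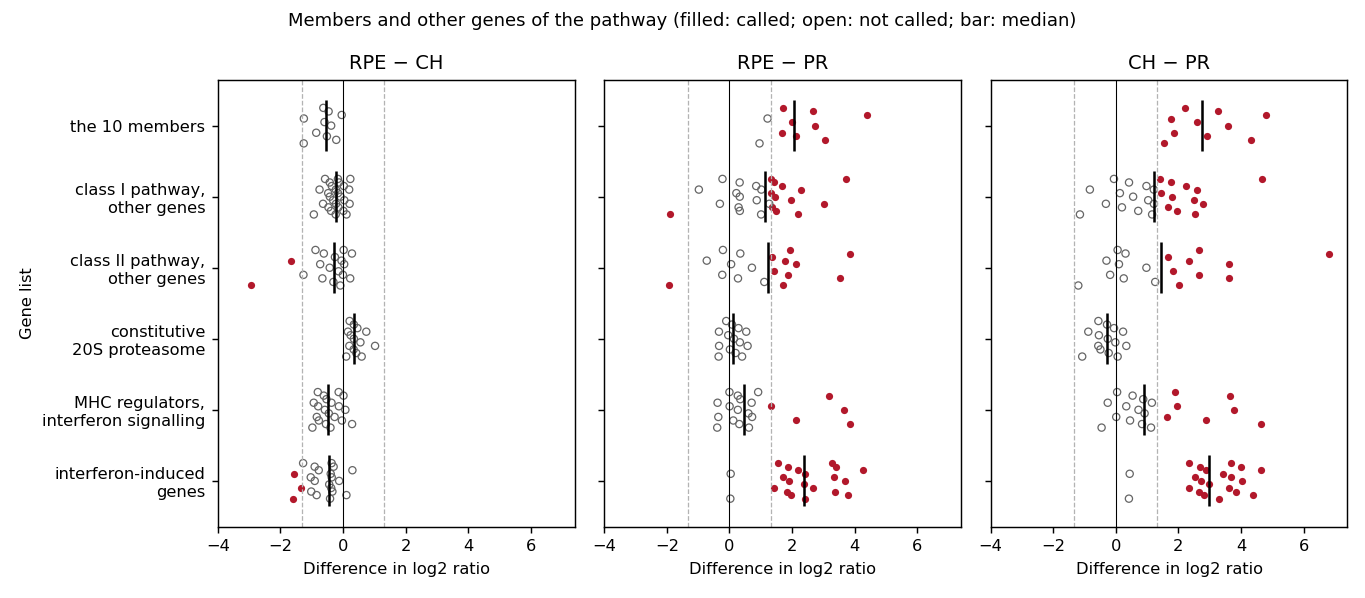
The difference in log2 ratio of each gene is plotted by list, in a panel for each comparison; filled points were called, open points were not, black bars mark medians and dashed lines mark an FC of 2.5. In the comparisons with the PR, the members (medians 2.07 and 2.74) and the interferon-induced genes (2.38 and 2.98) lie to the right, and the constitutive proteasome (0.11 and -0.27) lies around 0.

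Nlrc5 drives transcription of class I genes, and its level was 1.63, 1.70 and 1.53 in the CH, 0.71, 0.70 and 1.04 in the RPE, and -2.85, -3.21 and -3.03 in the PR. This is a difference of 3.85 in the RPE and 4.65 in the CH over the PR, both called, although the probe was well above background on only 2 of the PR arrays. A second Nlrc5 probe disagreed, with -0.24 and -0.25, neither called. Ciita drives transcription of class II genes, and its level was 0.87, 1.56 and 0.37 in the CH, -0.11, 0.57 and -0.16 in the RPE, and 0.33, -0.30 and 0.25 in the PR. For Ciita the RPE arrays overlapped with those of both other tissues, while the CH arrays lay above the PR arrays by a narrow margin. It was called in no comparison. The difference was 0.00068 between the RPE and the PR (95% confidence interval -0.70 to 0.70) and 0.84 between the CH and the PR (0.14 to 1.53). Of the 20 regulators and interferon signalling genes measured, 5 were called higher in the RPE and 7 in CH than PR, 0 lower. The medians were 0.48 and 0.90. Of all probes, 10.3% and 12% were called higher, and of probes well above background 15% and 17.4%. The counts rest on the reported probes. The interferon receptor chain Ifnar2 (3.65 and 3.64) and the transcription factor Irf1 (3.19 and 3.77), which is itself induced by interferon, were the next after Nlrc5. A second Irf1 probe disagreed here too, with -0.11 and -0.15, neither called. Between the RPE and the CH 0 of 20 were called, with a median of -0.49, while 1.55% of all probes were called lower in the RPE.

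Among 21 interferon-induced genes, 19 were called higher in the RPE and 19 in CH than PR, with medians of 2.38 and 2.98. At their reported probes, Iigp1 and Cxcl9 were called in neither comparison, but a second Iigp1 probe was called higher in both, with 1.74 in the RPE and 1.96 in the CH. Second probes of Isg15 and Irgm1 were also called higher in both. In the RPE over the PR, the other Gbp6 probes gave 1.17, 1.10 and 0.46 and a second Oas1a probe 1.12, none of them called. The largest differences were those of the guanylate-binding protein gene Gbp3 (4.27 and 4.39 over the PR in the RPE and the CH), the tetherin gene Bst2 in the RPE (3.80) and Ifit1, which binds viral RNA, in the CH (4.65). Between the RPE and the CH, 3 were called lower in the RPE, namely Mx1 (-1.59), Oas1a (-1.58) and Oasl2 (-1.34), all antiviral genes, and the median was -0.44. The second Oas1a probe gave -0.76 there and was not called. Leaving out CH 3 changed none of the 3 counts. These shares stand beside 10.3%, 12% and 1.55% of all probes.

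Markers of cells that could carry class II molecules were counted as well. Of 23 myeloid and antigen-presenting cell markers measured, 13 were called higher in the RPE and 19 in CH than PR. Between the RPE and the CH, 10 were called lower in the RPE, with a median of -1.16 beside 0.038 over all probes. Leaving out CH 3 raised the last count to 14. Their mean level ranged from 0.18 to 0.73 in CH, from -0.73 to -0.55 in RPE and from -2.41 to -2.24 in PR. Their summed Cy5 signal ranged from 1196530 to 1419410, from 652089 to 772449 and from 140516 to 209831. Emr1, which encodes a macrophage surface marker, was lower in RPE than CH by an FC of 3.98 (adjusted p = 6.32e-05), and its other probe gave -1.21 and was not called. Csf1r, the receptor gene on which macrophages depend, went the other way, with all RPE arrays above the CH arrays (0.53, adjusted p = 0.0162, not called). The other Csf1r probes gave 0.93 (adjusted p = 0.00168, limma) and 0.55, neither called. Cd163 was well above background on 1 RPE array and on no other array. Endothelial markers, with 11 of 12 called higher in both tissues than in the PR, had 0 calls between the RPE and the CH, and fibroblast markers had 7 of 7 called lower in RPE than CH. Of 7 B cell and 8 T cell markers, 1 and 0 were called lower in RPE than CH. Compared to the PR, 3 B cell and 2 T cell markers were called higher in both tissues. Of all probes, 10.3% were called higher in RPE than PR, 12% higher in CH than PR and 1.55% lower in RPE than CH. Among probes well above background these shares were 15%, 17.4% and 2.26%. The part of any of these cell types in the members' values was not tested.

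**Figure D4:**
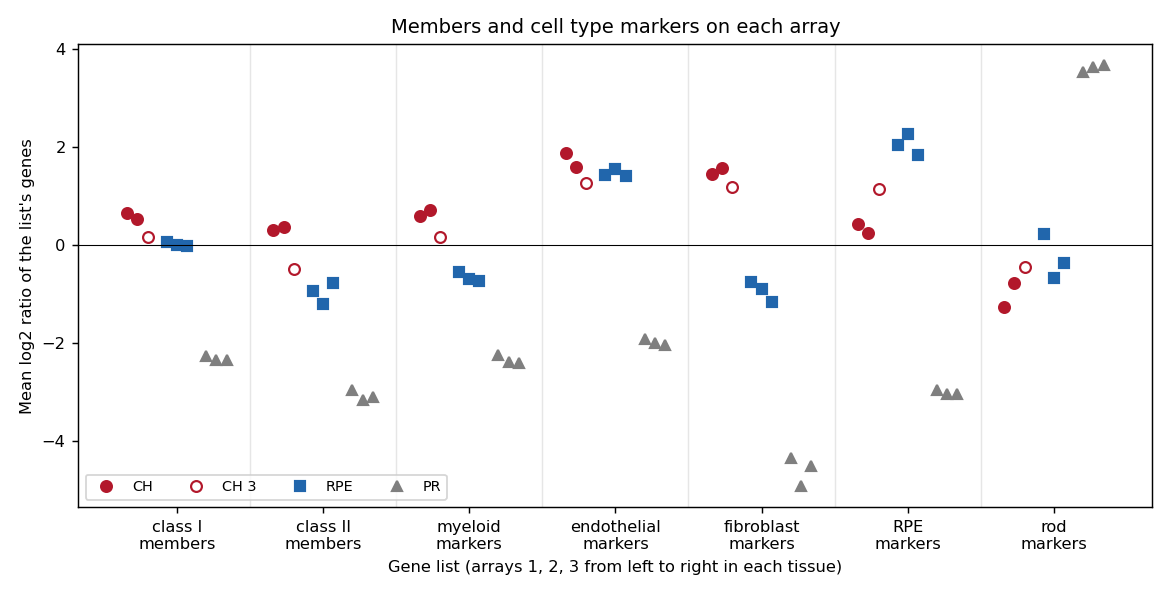
The mean log2 ratio of the class I members, the class II members and 5 marker lists is plotted for each array, with circles for the CH, squares for the RPE, triangles for the PR and an open circle for CH 3. CH 3 lies nearest to the RPE arrays among the CH arrays for the class I members (0.17), the class II members (-0.48), the myeloid markers (0.18) and the RPE markers (1.14).

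Finally, the genes whose pattern over the 9 arrays was most like that of a member were listed, from 21422 genes with an unsaturated probe well above background on all 3 arrays of a tissue. The points of such a correlation fall into 3 tissues and share the reference, so it is given as a description. Most like B2m were Heyl, a transcription factor of Notch signalling (Pearson's r 0.999), Mocos and Ctla2b. H2-K1 was most like Gask1b, the TGF-beta receptor gene Tgfbr2 and Shisa5, with 0.999 for each. Psmb8 was most like Emilin1, Klf10 and Dap (0.998, 0.998 and 0.997) and Tap1 most like BC057651, Steap4 and Camk1 (0.996, 0.995 and 0.995). Among the genes most like Cd74 was Cd52, a leukocyte surface antigen gene (0.996), beside Palm and Ppp1r14a. H2-Aa, with its wide spread in the CH, had the weakest matches, Kcne4 and Ece1 (0.991 for each) and a probe with no gene symbol (0.988).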

How the data were processed

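The members and all lists were chosen with earlier results of these data known. Per the labels, Agilent Feature Extraction 9.5.3.1 made the deposited files. The mean signal and median local background of each spot are deposited intensity values. The authors' processed signals are intensities corrected by that software, the deposited log10 ratio is Cy5 over Cy3, and the authors' series table holds log2 values that follow the Cy5 channel (correlation 0.990 to 0.994), by steps not given in the sources used here. All 3 were used as alternatives only.

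Signals were corrected with normexp (offset 50) and loess in limma 3.58.1 (R 4.3.3), without control spots (43020 spots remained) and without 228 to 586 outlier-marked spots per array. Spots of a probe were averaged. A mean per tissue was fitted to the 9 arrays, variances were moderated (eBayes), and p-values were adjusted by Benjamini-Hochberg over 39429 probes. The fit was tested on simulated data. The reported probe of a gene is the brightest that is unsaturated and well above background; if none qualifies, the brightest. Named beyond the members are at most 3 called genes with the largest FC per list, comparison and direction, fixed neighbours (Psmb10, Psmb5, Psmb6, Psmb7, Tapbp, Erap1, Ciita, Nlrc5, H2-Eb1, H2-DMa) and the 3 genes most alike. H2-T23, LOC100044874, LOC641240, Psmb1, Iigp1, Cxcl9, H2-Ea, H2-Eb2, March1, H2-Ob, Gbp6, Isg15, Irgm1 and single markers were named after their values were seen. RefSeq (GRCm38.p6) gave symbols for 26055 probes by accession, and promoters. Sequences and figures were handled in Python 3.11.15 with pandas 2.3.3, numpy 2.4.6 and matplotlib 3.10.9. Alternatives covered background, normalization, the series table, arrays fitted, blocks for number and slide, dim and marked spots, the variance model, several probes, thresholds and each array left out.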

Additional observations from a re-analysis of the deposited data

How the results depend on the processing

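Of 27 alternatives, the count of members called in the CH over the PR was 10 in every case, and that in the RPE over the PR was 8 in all but 3, with 9 (FC above 2, and without RPE 2, H2-Aa added) or 10 (no FC threshold). Between the RPE and the CH the count of 0 became 2 with median centring in place of loess, 2 with an FC above 2 and 3 with no FC threshold; with each array left out in turn it ran from 0 to 2, with 2 without CH 3 and 1 without RPE 3. The Tap1 difference between the RPE and the CH turned from -0.041 to 0.019 within slide 2, 0.17 without CH 1 and 0.098 without RPE 2, and ran from -0.18 to 0.17 with each array left out. Of the values of single members under these alternatives, 721 kept their direction and were counted as unchanged. A further 6 passed the thresholds only under the alternative, and 3, those of Tap1, changed sign. The values within slide 3 allow no test and were counted as unchanged without a check of the thresholds. Between RPE 2 and CH 2, Cd74 and H2-Ab1 had differences of -1.86 and -1.86 there, beyond the FC threshold. The fit within slide 2 called 0 of 39417 probes, so it cannot tell whether members would be called. The log ratio of the scanner software gave 4240 probes called higher and 3573 lower in the RPE than in the PR, against 4062 and 2039 here, and its processed signals 4334 and 3615. For the CH over the PR the log ratio gave 4964 and 4367 against 4751 and 2496. The counts of members were the same. The cause was not tested. Aquantile leaves the ratios as they are. Whether equal replicate numbers mark paired samples remains unknown. Deviations from the tissue means correlated by -0.076 to -0.023 for number 1 and by 0.16 to 0.29 for number 2, whose arrays also shared a slide. For number 3 they correlated by -0.035, 0.064 and 0.29, the last between RPE 3 and PR 3 on different slides. These correlations differ between the numbers and partly follow the slide, so they cannot decide it. With replicate number as a block the counts were 0, 8 and 10, as without it. A slide block gave the same. Slide 2 held no PR array and slide 1 only PR arrays, so no test within a slide was possible against the PR. The list counts without CH 3 were chosen after seeing the data. The bound on precision is the number of arrays, 3 per tissue, and for Tap1 the low signal in the PR.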
